A study of Homo sapiens with 16 samples.

Results

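The BCL2 family decides whether a cell commits to mitochondrial apoptosis, and 10 of its genes are described here through their N6-methyladenosine (m6A) peaks: BCL2, BCL2L1, BCL2L2, MCL1, BCL2L11, BBC3, PMAIP1, BMF, BAX and BAK1. A region of the deposited merged peak list was taken as theirs when its strongest summit lay inside the GENCODE span of the gene on hg38. This gave 26 regions in 8 of the 10 genes, out of 36970 regions in the merged list. MeRIP-seq (methylated RNA immunoprecipitation and sequencing), which compares antibody-enriched RNA fragments (IP) with unenriched input, was run on the human prostate cancer line C4-2B, sensitive to enzalutamide and labelled WT, and on its enzalutamide-resistant derivative MDV-R (MDVR in the cell line label). Both carry the time label day 3, with 4 IP and 4 input libraries per line. Enzalutamide is an androgen receptor inhibitor. MDV-R was raised from C4-2B by serial passage in the drug and, per the study's methods, was kept in it, so that the line and its medium cannot be told apart. The MDV-R sample titles also carry the name T24R2, and the cell line label was followed. No label says that the replicates came from separate cultures, so the p-values measure the spread between these libraries, which may be technical. In the limma tests that spread was pooled, in part or in full, over all regions tested.

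The family works by binding within itself. The guardians BCL2, BCL2L1 (BCL-XL), BCL2L2 (BCL-W) and MCL1 hold the effectors BAX and BAK1 in check, and the effectors, once free, open the outer mitochondrial membrane and release cytochrome c. The BH3-only proteins BCL2L11 (BIM), BBC3 (PUMA), PMAIP1 (NOXA) and BMF answer stress signals by occupying the guardians, and BBC3 and PMAIP1 are well known targets of p53. m6A is laid on nascent transcripts by the METTL3-METTL14 complex, often near stop codons and in long exons, at a short sequence core that contains GGAC in its best known form, and it can alter the decay and translation of a transcript.

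The peak lists held from 13191 peaks in C4-2B replicate 1 to 30645 in MDV-R replicate 4. Total library depth is not given by the files. The input library was 0.747 to 1.22 times the size of its IP library in C4-2B and 1.56 to 3.15 times in MDV-R, with no overlap between the lines, so the depth of the input and the line cannot be told apart in any value that uses the input. As a check of the labels, all 7 luminal prostate markers examined held a region and 5 of them held one called in all 4 C4-2B lists, against all 7 in MDV-R. KLK3 and TMPRSS2 lacked a call in C4-2B replicate 1 alone, the shortest list. PTPRC, KRT5, KRT14 and GATA3 had no region, VIM had a region called in all 8 lists, COL1A1 had one with a peak in 1 list of C4-2B and 2 of MDV-R, and UPK2, a urothelial gene, held a region with a peak in every list of both lines.

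Of the 26 regions, 12 were called in all 8 lists, where a call is an overlap of at least 1 bp with a peak, while 25.9% of the 36076 merged regions that held any peak were called in all 8. Between 13 and 20 of the regions were called per C4-2B list and between 20 and 22 per MDV-R list. BCL2, BCL2L2, BCL2L11 and BBC3 held 4 regions each, PMAIP1 and BMF 3, and BCL2L1 and MCL1 2. BAX and BAK1, the effectors, held no region and no peak in any list. Of 20033 protein-coding genes, 44.9% likewise held no called region. A further region, chr2:111117611-111120472, overlapped the start of BCL2L11 but had its strongest summit upstream of the gene, and it was not counted.

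**Figure D1:**
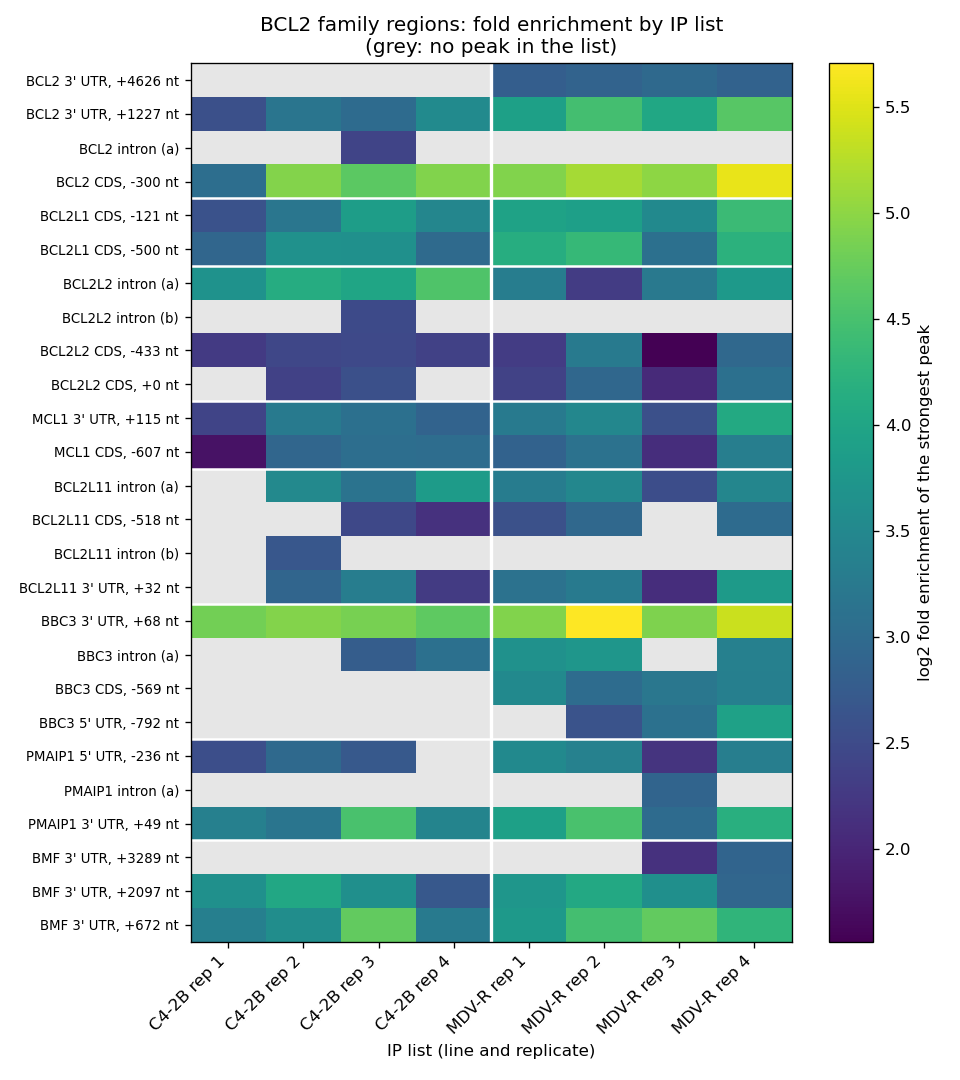
Fold enrichment (log2, colour) of the strongest peak in each of the 26 BCL2 family regions (from top to bottom, with the distance of the summit from the stop codon in nt for exonic regions) in the 8 IP lists (columns), with grey for no peak. The highest values lie in the BCL2 coding region and the BBC3 3′UTR region, and the BCL2 region at +4626 nt and the BBC3 region at -569 nt are grey in all 4 C4-2B lists.

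On the canonical transcripts, 8 of the 26 strongest summits lay in coding sequence, 9 in the 3′UTR, 2 in the 5′UTR and 7 in introns. Over all regions with a peak, any transcript of any gene at the summit could give the class, protein-coding genes first. By that rule 24.8% lay in coding sequence, 13.4% in 3′UTRs and 33.7% in introns. With any transcript of the family gene alone, 10 of the 26 family regions were coding, 7 lay in 3′UTRs and 6 in introns. The BCL2L2 intronic summits also lie in coding sequence of PPP1R3E, so the family counts and these shares do not follow quite the same rule. Several summits sat close to the stop codon. The distance was 0 nt in BCL2L2, 32 nt downstream in BCL2L11, 49 nt in PMAIP1, 68 nt in BBC3 and 115 nt in MCL1. The 3 BMF summits lay further out, 672, 2097 and 3289 nt into a 3′UTR of 3897 nt, and those of BCL2 lay 1227 and 4626 nt into one of 5279 nt. The transcripts without a peak have 3′UTRs of 162 nt in BAX and 1251 nt in BAK1, and the shortest 3′UTR of a family transcript with a peak, that of BBC3, has 978 nt.

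**Figure D2:**
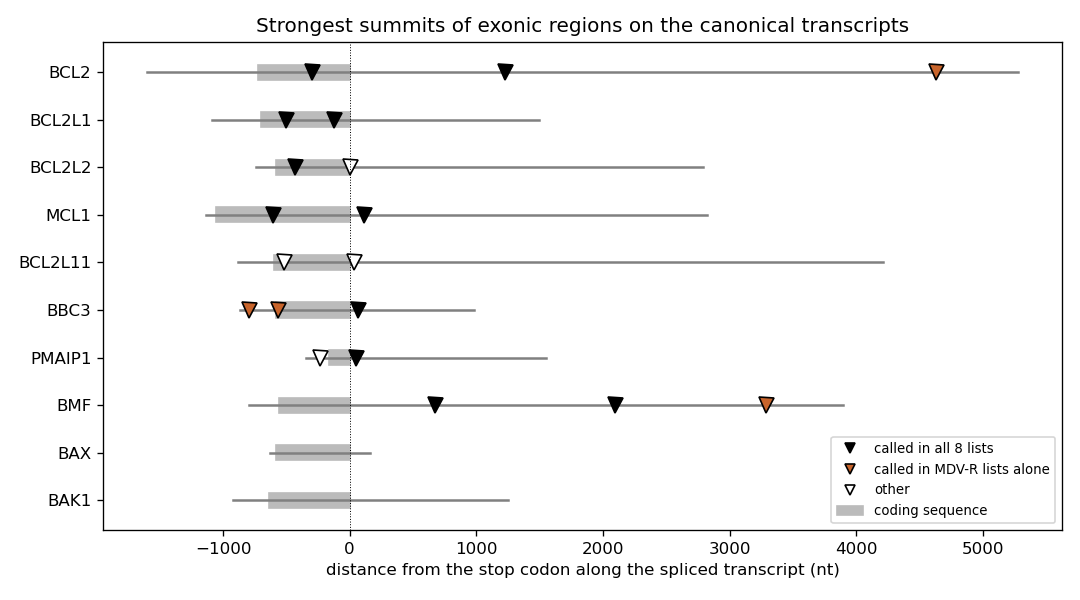
Strongest summits of the exonic regions (triangles) on the canonical transcript of each of the 10 genes, by distance from the stop codon in nt, with the coding sequence as a grey box and the UTRs as lines. Black triangles are regions called in all 8 lists, orange ones regions called in 2 to 4 MDV-R lists and no C4-2B list, and white ones the others. BAX and BAK1 carry none.

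To show what lies under the peaks, the following sequences give the GGAC nearest to the strongest summit (its 4 bases in capitals, 21 bases in all, hg38, 5′ to 3′ on the strand of the gene). They cover the main BCL2 and BBC3 regions and the PMAIP1 3′UTR region, and 4 strong regions of BCL2L1 and MCL1 set beside them. The BCL2L2 intronic regions and the PMAIP1 5′UTR region are among those not shown. Where no GGAC lay within 50 nt of the summit, the 21 bases centred on the summit are shown in lower case.
BCL2 coding exon 2, chr18:63318238-63318258, minus strand: ctcttcagGGACggggtgaac
BCL2 3′UTR at 1227 nt past the stop, chr18:63127342-63127362, minus strand: tatcagaaGGACatggtgaag
BCL2 distal 3′UTR, chr18:63124032-63124052, minus strand: gttcatctGGACtgccccaga
BCL2L1 coding exon 2, chr20:31722009-31722029, minus strand: gcggtgaatggagccactggc
BCL2L1 coding exon 3, chr20:31666110-31666130, minus strand: ctctctgaGGACtaaaactgc
MCL1 coding exon 1, chr1:150579051-150579071, minus strand: accagtacGGACgggtcacta
MCL1 3′UTR, chr1:150577294-150577314, minus strand: atgcagttGGACtccaagctg
BBC3 3′UTR, chr19:47221710-47221730, minus strand: agcgcgggGGACtttctctgc
BBC3 coding exon 2, chr19:47228411-47228431, minus strand: atggcccgcgcacgccaggag
PMAIP1 3′UTR, chr18:59902769-59902789, plus strand: gcatgaggGGACtccttcaaa

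In the BCL2 coding exon the A of GGAC lay 1 nt from the strongest summit, and in the BBC3 3′UTR 4 copies of GGAC lay in the 101-nt window around it, 3 of them GGACT. Counted from the summit, with upstream negative, the A stood at 48 nt in the proximal BCL2 3′UTR region, at -41 nt in the distal one, at -42 nt in the MCL1 3′UTR and at -21 nt in the PMAIP1 3′UTR. The BCL2L1 exon 2 and BBC3 exon 2 windows held no GGAC on the strand of the gene. Nor did the window of the BCL2L2 intronic region at chr14:23301051-23301976, which held GGAC on the opposite strand, that of the overlapping gene PPP1R3E. GGAC, searched on the strand of the gene alone, was present in 13 of the 26 windows. It was present in 41.0% of 31078 windows of the same length around all summits in genes. Among family regions called in all 8 lists, 1 of which is intronic, 8 of the 12 windows held it. Over all exonic regions called in all 8 lists the share was 51.2%. Among exonic regions it was present in 12 of 19 family windows, beside 46.3% of all exonic windows. On the opposite strand it was found in 30.8% of the family windows and in 28.6% of all. A match is a description of these letters and places no m6A.

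In the MDV-R line 2 regions of the family were called in all 4 lists and in no C4-2B list, in the far end of the BCL2 3′UTR and in coding exon 2 of BBC3. No family region showed the reverse. Over all 36076 regions with a peak, 3.68% were called in all 4 MDV-R lists alone and 1.22% in all 4 C4-2B lists alone, and the 2 of 26 are not read as particular to the family. One further region, in exon 1 (5′UTR) of BBC3, was called in 3 MDV-R lists and no C4-2B list, as were 7.99% of all regions in 3 or 4 lists, with 3.24% in the other direction. With 4 lists per line the smallest p of Fisher's exact test (two-sided) is 0.0286, which both regions had. After Benjamini-Hochberg adjustment it was 0.584, so that 0 of the 36076 regions (0%) passed 0.05 and 1766 had an unadjusted p below it. When each list was limited to the size of the smallest, neither of the 2 regions remained a call in a single line.

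At the distal BCL2 3′UTR region (chr18:63123887-63124247, exon 3 of 3, minus strand) the MDV-R lists held fold enrichments of 6.95, 7.34, 7.92 and 7.30, a mean of 7.38 ± 0.399 (SD, n = 4). Fold enrichment, as the peak caller gives it, divides IP coverage by the background expected at that place, with 1 added to each. These peaks rested on 11, 11, 12 and 9 IP tags, as recovered from the deposited fold enrichment and p-value of each peak, and a count of 9 has a 95% exact Poisson interval of 4.12 to 17.1 that covers counting error only. As multiples of the background averaged over the whole library, called the IP level from here on, they stood at 36.6, 35.1, 35.1 and 30.1. The lowest IP level at which the C4-2B lists held any peak over the average background was 14.9, 11.9, 12.9 and 13.9 in replicates 1 to 4, and over about 2 times the average it was 19.3 to 22.4. A missing peak sets such a limit only where the local background is that low, and the C4-2B background at this place is not given. It does not show that the signal was absent.

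The BBC3 region in coding exon 2 of 4 (chr19:47228236-47228564, minus strand, summit at -569 nt from the stop codon) had MDV-R fold enrichments of 11.5, 8.20, 9.19 and 10.2 on 14, 11, 20 and 13 tags. Its IP level was 46.6, 35.1, 58.4 and 43.5. These values too lay above the lowest called levels of the C4-2B lists, which apply only where the background is that low. BBC3 encodes PUMA, which binds all the guardians. The exon 1 region (chr19:47230993-47231340) was called in MDV-R replicates 2, 3 and 4 with fold enrichments of 6.17, 8.62 and 15.3.

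BCL2 itself, the first guardian described and the target of venetoclax, was the family gene with the largest rise among regions shared by both lines. In the proximal 3′UTR region (1227 nt past the stop codon, chr18:63126940-63129003, exon 3) the IP level was 22.4, 32.7, 35.4 and 48.6 in C4-2B and 120, 112, 129 and 141 in MDV-R. All 4 MDV-R lists lay above all C4-2B lists. The rise was 3.72-fold (log2 1.9, SE 0.18, limma adjusted p = 1.40e-11, n = 4 per line). It rested on 9 to 14 tags per C4-2B list and 35 to 44 per MDV-R list. limma drew the spread of each region towards a value shared by all regions tested and took no account of tag counts. The SE and p above may therefore understate the counting error at so few tags.

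In coding exon 2 of 3 (chr18:63317316-63320209), where the summit fell within 30 nt in all 8 lists, the BCL2 IP level was 79.6, 119, 138 and 132 in C4-2B and 243, 236, 272 and 281 in MDV-R. The groups did not overlap here either, and the rise was 2.24-fold (log2 1.17, SE 0.17, limma adjusted p = 4.01e-07). In the 3′UTR region, by contrast, the strongest summit moved over 877 nt among the C4-2B lists and over 206 nt among the MDV-R lists, so the tags compared there come from different points of a region 2064 nt long.

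The local background is set by the input around the summit and is the value nearest to transcript abundance in these files. The peak caller sets it no lower than the library average, so a value of 1.00 is a floor and not a measured background. In the proximal BCL2 3′UTR region it was 1.00, 1.00, 1.57 and 1.00 times the library average in C4-2B. There 3 of the 4 C4-2B lists sat at the floor. In MDV-R it was 4.83, 2.02, 5.12 and 2.47 times. The fitted background was 2.98-fold higher in MDV-R (log2 1.58, SE 0.42, limma adjusted p = 0.0193), with the floor values entered as if measured. Values this low rest on few input tags, and the input was smaller relative to its IP in C4-2B. The size of the difference is therefore uncertain in both directions. The call was lost without C4-2B replicate 1, C4-2B replicate 2 or MDV-R replicate 1. In the coding exon the background was 6.66, 1.00, 2.36 and 1.00 in C4-2B and 4.83, 3.54, 5.63 and 2.66 in MDV-R, groups that overlapped through C4-2B replicate 1, and it passed the threshold only without that library (log2 1.01 with it, adjusted p = 0.198, and 1.59 without it, adjusted p = 0.0436, limma). Of the 3 C4-2B lists then left, 2 sat at the floor, so that this fit too rests on values that were not measured above it. Fewer cells of a type and less RNA per cell cannot be told apart in these bulk samples.

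Fold enrichment, which sets the IP against that background, was 5.94, 8.98, 8.06 and 11.6 in C4-2B and 15.1, 22.0, 16.3 and 24.7 in MDV-R in the proximal BCL2 3′UTR region. It rose 2.28-fold (log2 1.19, SE 0.36, limma adjusted p = 0.0395), and the groups did not overlap, as in 10.2% of the 9327 regions called in all 8 lists. The call did not hold under small changes. It was lost without any single library other than MDV-R replicate 3, and without the peak caller's pseudocount of 1 the difference was 0.32 (SE 0.49, adjusted p = 0.684). In the coding exon fold enrichment was 8.30, 30.7, 25.4 and 30.3 in C4-2B and 30.2, 35.5, 32.1 and 47.4 in MDV-R (log2 0.76, SE 0.36, adjusted p = 0.164). An intronic peak (chr18:63198856-63199246) was found in C4-2B replicate 3 alone, on 6 tags.

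Among the 12 shared regions, BCL2L1 exon 2 and the MCL1 3′UTR had the highest mean IP level in both lines, and the IP level of no BCL2L1 or MCL1 region passed the test between the lines. In BCL2L1 coding exon 2 of 3 (chr20:31721661-31724058) the IP level was 502, 594, 656 and 629 in C4-2B and 613, 612, 552 and 589 in MDV-R (log2 0.00, SE 0.16, limma adjusted p = 0.988). The lncRNA ABALON overlaps this summit on the other strand, and the peak lists carry no strand. In coding exon 3 (chr20:31665634-31666354, summit 121 nt upstream of the stop codon and within 14 nt in all lists) the IP level was 241 to 312 in C4-2B and 287 to 321 in MDV-R, with overlapping groups (log2 0.12, SE 0.16, adjusted p = 0.587). The local background at both BCL2L1 summits differed by -0.62 at exon 3 and -0.70 at exon 2 on the log2 scale and did not pass the threshold (adjusted p = 0.309 and 0.249, limma). At exon 2, fold enrichment was 7.59, 12.6, 12.49 and 8.0 in C4-2B and 17.7, 20.2, 8.56 and 18.6 in MDV-R (log2 0.64, SE 0.36, adjusted p = 0.235). Without MDV-R replicate 3 both fold enrichment (log2 0.93, limma adjusted p = 0.0451) and background (log2 -0.97, adjusted p = 0.0338) passed. In fold enrichment, leaving out that library raised the regions called higher in the whole series from 318 to 2016 of 9327, so the gained call is not read as particular to BCL2L1.

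MCL1, a short-lived guardian, had an IP level of 353, 473, 473 and 504 in C4-2B and 539, 564, 508 and 532 in MDV-R in its 3′UTR (chr1:150576916-150577720, exon 3 of 3). In coding exon 1 (chr1:150578284-150579739) it was 256, 318, 367 and 375 against 390, 405, 406 and 428. All MDV-R values were above all C4-2B values in both regions, but the log2 differences of 0.26 (SE 0.16, limma adjusted p = 0.207) and 0.32 (SE 0.16, adjusted p = 0.116) did not pass. The coding exon passed when each list was centred on its median (log2 0.24, adjusted p = 0.0193), as did 23.3% of all regions as higher and 27.0% as lower. Both regions passed when tags were scaled by their sum over the regions called in all 8 lists (0.21, adjusted p = 0.0218 in the 3′UTR, and 0.27, adjusted p = 0.00862 in exon 1). The share of all regions under that scaling is not given here, so the gained calls are not read as particular to MCL1. Fold enrichment was 5.35 to 9.63 against 5.98 to 16.8 in the 3′UTR and 3.39 to 8.30 against 4.31 to 10.1 in exon 1, and the groups overlapped.

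BCL2L2 held the only shared region that passed the test as lower in IP level in MDV-R, and another gene lies at the same place. Its intronic region chr14:23301051-23301976 had an IP level of 164, 208, 180 and 226 in C4-2B and 66.6, 66.9, 117 and 80.3 in MDV-R, 2.4-fold lower in MDV-R (log2 -1.26, SE 0.17, limma adjusted p = 1.40e-07), with no overlap between the groups. The same summit lies in coding sequence of PPP1R3E on the opposite strand, and without strand in the lists the signal of the 2 genes cannot be separated. Fold enrichment there was 12.8, 17.6, 16.0 and 23.6 against 9.93, 4.90, 9.43 and 13.9 (log2 -0.93, SE 0.36, adjusted p = 0.0958), and it passed when each list was centred on its median (log2 -1.33, adjusted p = 0.0236). In coding exon 3 of 4 (chr14:23307542-23308191) the IP level was 106 to 132 in C4-2B and 89.9 to 134 in MDV-R (log2 -0.15, SE 0.16, adjusted p = 0.520), and this summit is coding in the readthrough gene BCL2L2-PABPN1 as well. The region at the stop codon (chr14:23308575-23309123) was called in C4-2B replicates 2 and 3 and in all MDV-R lists, with IP levels of 214 and 244 against 246 to 309. A further intronic region (chr14:23302183-23302459), also in PPP1R3E coding sequence, had a peak in C4-2B replicate 3 alone, on 11 tags.

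**Figure D3:**
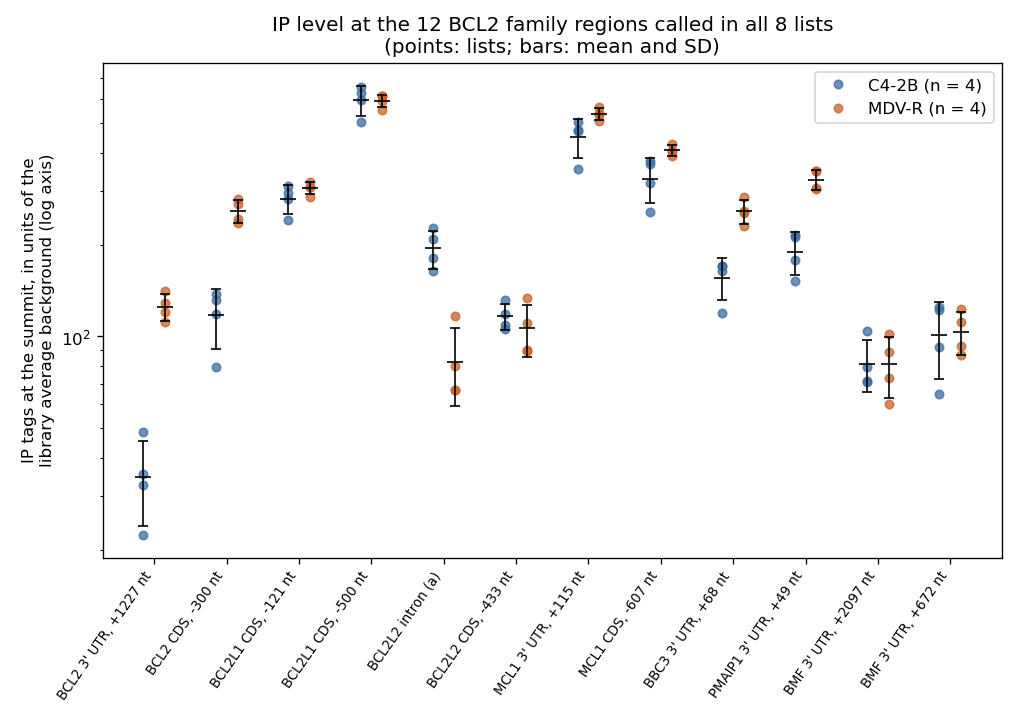
IP tags at the summit as multiples of the library-wide mean background (log axis) for the 12 BCL2 family regions called in all 8 lists, with 4 C4-2B lists in blue and 4 MDV-R lists in orange. Bars give mean and SD. BCL2, BBC3, PMAIP1 and MCL1 regions lie higher in MDV-R without overlap, although the MCL1 regions did not pass the test, and the BCL2L2 intronic region lies lower.

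Among the BH3-only genes, BBC3 and PMAIP1 rose in IP level and BMF did not pass the test. The BBC3 3′UTR region (chr19:47220925-47222198, exon 4 of 4) had an IP level of 119, 163, 170 and 170 in C4-2B and 230, 287, 254 and 258 in MDV-R, a rise of 1.66-fold (log2 0.73, SE 0.16, limma adjusted p = 3.46e-04). The groups did not overlap. Its summit is coding in another BBC3 transcript. Its fold enrichment was among the highest of the family in both lines, 25.7 to 30.7 in C4-2B and 30.1 to 52.3 in MDV-R, and the difference did not pass (log2 0.40, SE 0.36, adjusted p = 0.462). Its local background was 1.00 to 3.28 against 2.36 to 5.63 (log2 0.74, SE 0.45, adjusted p = 0.269). An intronic BBC3 region (chr19:47226564-47227040), which is a noncoding exon in another transcript, had IP levels of 25.7 and 34.7 in C4-2B replicates 3 and 4 and of 59.9, 66.9 and 56.9 in MDV-R replicates 1, 2 and 4.

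PMAIP1 encodes NOXA, which binds MCL1. In its 3′UTR (chr18:59902382-59903125, exon 2 of 2, with a summit that is coding in another transcript) the IP level was 152, 178, 215 and 212 in C4-2B and 303, 347, 307 and 348 in MDV-R, without overlap, a rise of 1.74-fold (log2 0.80, SE 0.16, limma adjusted p = 1.04e-04). Fold enrichment overlapped, at 9.04 to 23 against 8.03 to 22.9 (log2 0.28, SE 0.36, adjusted p = 0.615), while the local background was 6.28 to 17.1 against 12.1 to 35.7 (log2 0.63, SE 0.45, adjusted p = 0.351). At the start of the gene (chr18:59899543-59900345) a region was called in C4-2B replicates 1, 2 and 3 and in all MDV-R lists. Its summits lay at 59899947, 59899664 and 59899881 in those C4-2B lists, upstream of the annotated start at 59899996, and between 59900091 and 59900143 in MDV-R, in the 5′UTR. Its IP level was 25.7 to 38.6 against 69.9 to 82.9. It passed in the fit on regions called in at least 3 lists of each line (log2 1.37, SE 0.17, limma adjusted p = 1.52e-05). The fit thus compared different points, upstream of the gene in C4-2B and in the 5′UTR in MDV-R. The C4-2B values rested on 11, 13 and 8 tags, and no change at a single 5′UTR site is read from it. In that fit 2552 of all 13507 regions passed as higher in IP level and 2014 as lower. An intronic PMAIP1 peak (chr18:59900707-59901051) was found in MDV-R replicate 3 alone, on 17 tags.

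BCL2L11 encodes BIM, the BH3-only protein that FOXO3 is known to induce. None of its 4 regions was called in all 8 lists, and C4-2B replicate 1, the shortest list, held no peak in it. The 3′UTR region 32 nt past the stop codon (chr2:111163989-111164487) had an IP level of 74.3, 83.6 and 93.8 in C4-2B replicates 2, 3 and 4 and of 110, 143, 131 and 114 in MDV-R. It passed the test in the fit on regions called in at least 3 lists of each line (log2 0.57, SE 0.16, limma adjusted p = 0.0124), as did 2552 of all 13507 regions in this direction. Coding exon 2 of 4 (chr2:111123489-111124069) had a peak in 2 lists of C4-2B and 3 of MDV-R, at 43.5 to 76.5. In the first intron (chr2:111120630-111122420) 3 C4-2B lists and all MDV-R lists held a peak, at 45 to 73.0 against 46.7 to 54.2, with summits spread over 1294 nt. Another intronic peak (chr2:111149815-111150080) was found in C4-2B replicate 2 alone, on 10 tags. The lncRNA MIR4435-2HG spans all of these summits on the other strand.

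BMF binds the guardians when freed from the cytoskeleton, and its peaks lay in the 3′UTR alone. The region 672 nt past the stop codon (chr15:40090238-40092029, exon 5 of 5) had an IP level of 64.7, 92.1, 122 and 125 in C4-2B and 93.2, 112, 123 and 87.0 in MDV-R (log2 0.07, SE 0.18, limma adjusted p = 0.797). The region at 2097 nt (chr15:40089373-40090100) had 70.7 to 104 against 60.2 to 102 (log2 -0.01, SE 0.17, adjusted p = 0.962). A weaker region at 3289 nt (chr15:40088344-40088759) was called in MDV-R replicates 3 and 4, on 7 and 9 tags.

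In IP level, 4 of the 12 shared regions passed the limma test as higher in MDV-R (2 in BCL2, 1 each in BBC3 and PMAIP1) and 1 as lower, where 19.8% of all 9327 regions passed as higher and 14.7% as lower. The median difference over the 12 was 0.19 on the log2 scale beside 0.06 over all. The same 5 regions passed without any single library, with the replicate block and with each of the other scalings. Centring each list on its median gave 5 higher and 1 lower, with 23.3% and 27.0% of all regions. Groups did not overlap, with MDV-R higher, in 6 of the 12, against 20.8% of all, and with MDV-R lower in 1, against 11.1%.

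In local background 1 of the 12 was called higher, the proximal BCL2 3′UTR region, and 0 lower (limma, 0 lower at an unadjusted p under 0.05), where 1.66% of all regions were higher and 11.0% lower. The groups did not overlap in 1 of the 12, against 2.11% of all with MDV-R higher. The median difference of all regions was -0.48 on the log2 scale, and 8 of the 12 lay above that median. After centring, 2 were higher, the PMAIP1 3′UTR being the second (log2 1.12, adjusted p = 0.0492), beside 5.95% higher and 6.89% lower in all.

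In fold enrichment 1 of the 12 was called higher and 0 lower (limma, 1 lower at an unadjusted p under 0.05), where 3.41% of all regions were higher and 0.225% lower. All regions together were shifted by 0.44 towards MDV-R, and 5 of the 12 lay above that shift. With each list centred on its median the share of all regions was 0.847% higher and 1.79% lower, no family region was called higher, the proximal BCL2 3′UTR region stood at 0.79 (adjusted p = 0.0781), and 1, the BCL2L2 intronic region, was lower. limma pooled the spread of fold enrichment completely, so its SE was 0.36 for every region.

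**Figure D4:**
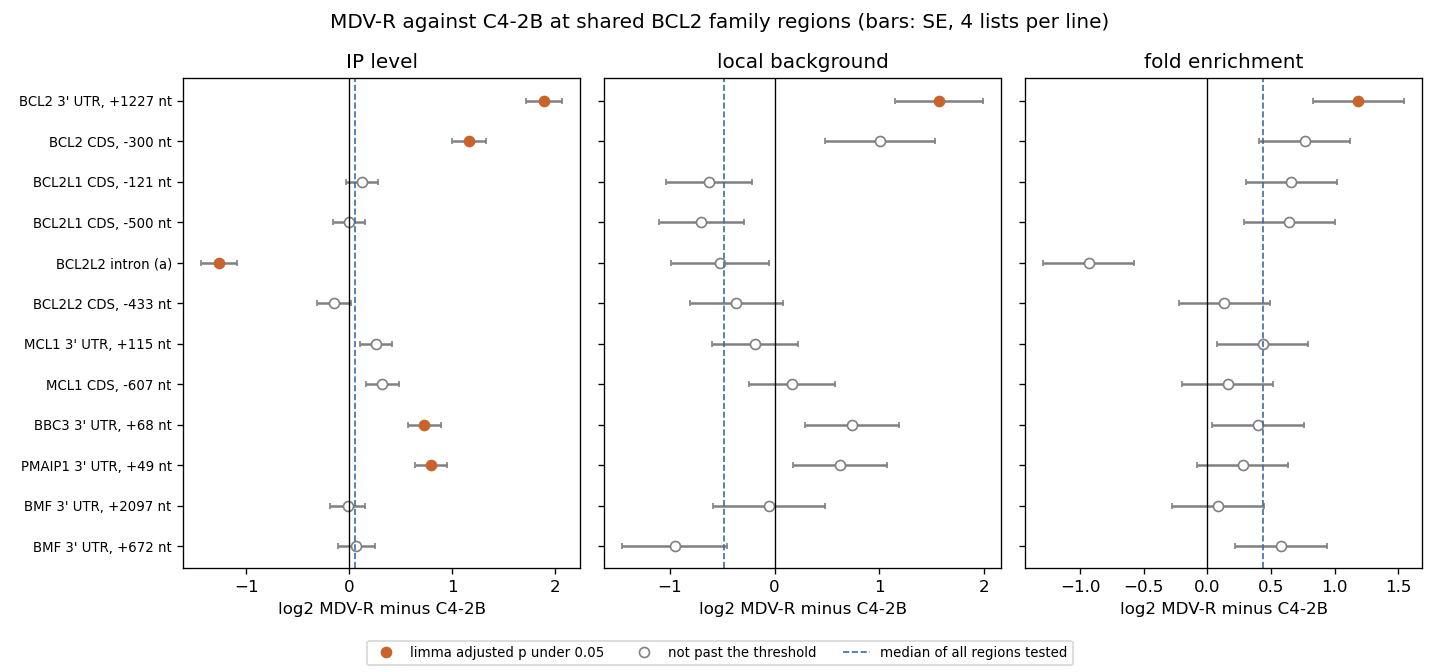
Differences between MDV-R and C4-2B (log2, points with SE, 4 lists per line) in IP level, local background and fold enrichment at the 12 shared BCL2 family regions. Filled points passed a limma adjusted p of 0.05, and the dashed line is the median of all 9327 regions tested. Both BCL2 regions lie to the right of that line in all 3 panels.

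Ratios of IP tags between summits of the same list need no scaling of libraries. They were picked after the values were seen and are given without a test. The tags at the BCL2 coding exon were 0.158, 0.20, 0.211 and 0.210 times those at BCL2L1 exon 2 in C4-2B and 0.397, 0.385, 0.492 and 0.477 times in MDV-R. Relative to the MCL1 coding exon they were 0.353 ± 0.0306 (SD, n = 4) in C4-2B and 0.633 ± 0.0385 in MDV-R. Relative to the MCL1 3′UTR, tags in the proximal BCL2 3′UTR region were 0.0760 ± 0.0145 and 0.234 ± 0.0301. Within BCL2, the 3′UTR held 0.281, 0.275, 0.256 and 0.368 times the tags of the coding exon in C4-2B and 0.493, 0.473, 0.473 and 0.50 times in MDV-R. The BCL2 3′UTR summits were spread over 877 nt among the C4-2B lists and 206 nt among the MDV-R lists. The 2 ratios with that region therefore use tags from different points of it. The lines did not overlap in any of the 4 ratios. The lack of overlap follows in part from the choice of pairs, because the BCL2 regions were already called higher in IP level. The share of other pairs without overlap was not determined, so nothing further is read from it.

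**Figure D5:**
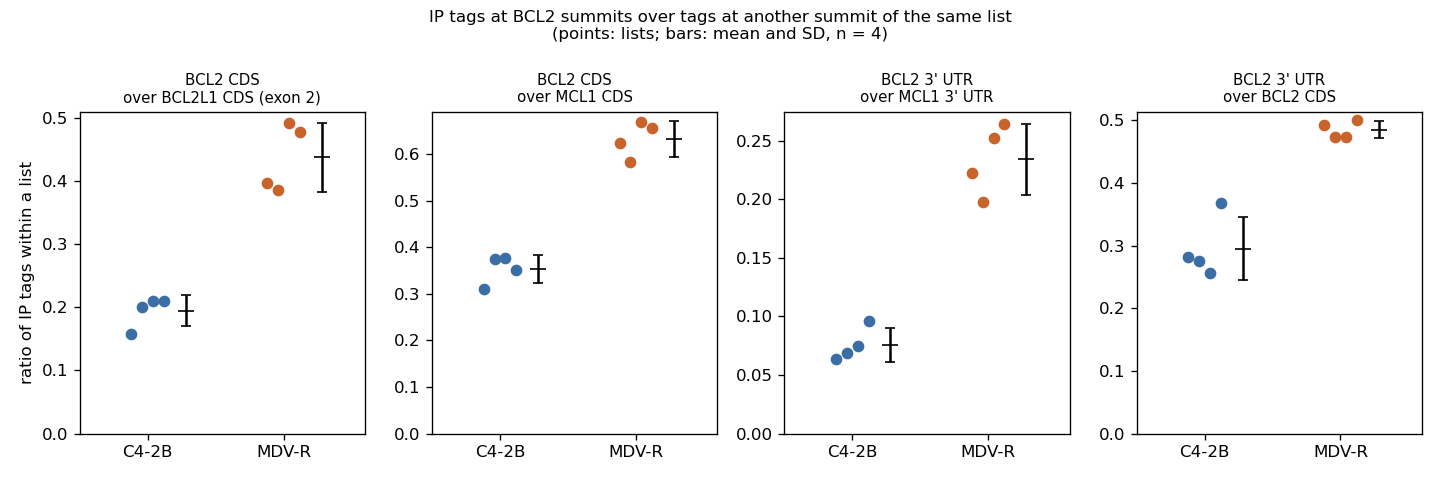
Ratios of IP tags at 2 summits of the same list, for BCL2 over BCL2L1, BCL2 over MCL1 (coding and 3′UTR) and the BCL2 3′UTR over its coding exon. Points are the 4 lists of each line, bars give mean and SD, and every axis starts at 0. All MDV-R points lie above all C4-2B points in each panel, for pairs picked after the values were seen. The BCL2 3′UTR tags come from different points of that region in different lists.

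Around the family, 12 other BCL2-related genes were examined, of which 8 held 23 regions, and 2 of the 23 were called in all MDV-R lists and no C4-2B list, beside 3.68% of all regions. One lay in the 3′UTR of HRK, a further BH3-only gene (chr12:116860800-116861582), with fold enrichments of 17.6, 19.7, 13.9 and 30.4 in MDV-R. The other lay in the 3′UTR of BNIP3, a mitophagy receptor (chr10:131968573-131970663), with 4.13, 13.4, 9.25 and 9.68. Of 7 regions of this list called in all 8 lists, 2 were higher in IP level and 0 lower (limma, 2 in all at an unadjusted p under 0.05), beside 19.8% and 14.7% of all regions, and 0 passed in fold enrichment (limma, 4 at an unadjusted p under 0.05). Their median difference in fold enrichment was 0.85 on the log2 scale, beside 0.44 over all regions. The share of all regions at an unadjusted p under 0.05 is not given here, so nothing is read from the unadjusted counts.

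Of 15 genes of the apoptosome, caspases and their inhibitors, 13 held 25 regions. CASP2, an initiator caspase, had a 3′UTR region called in the 4 MDV-R lists alone (chr7:143305018-143305749), at 4.96, 7.11, 3.79 and 9.04. In the 5 shared regions of these genes 1 was higher and 1 lower in IP level, beside the same 19.8% and 14.7%, and 0 passed in fold enrichment (limma, 2 at an unadjusted p under 0.05). Their median difference in fold enrichment was 0.57 on the log2 scale. Of 8 regulators of the family, 7 held 27 regions and 9 were shared, with 3 higher and 0 lower in IP level (limma, 3 in all at an unadjusted p under 0.05, beside 19.8% and 14.7% of all regions), 1 higher in fold enrichment (3.41%) and a median log2 difference in fold enrichment of 0.63. FOXO3, a transcription factor, had a 5′UTR region called in MDV-R alone (chr6:108559666-108560120), at 14.2, 12.7, 3.5 and 17.2. MDM2, the ubiquitin ligase of p53, had a coding region (chr12:68839100-68839809) whose fold enrichment was 2.05, 4.08, 4.31 and 3.26 in C4-2B and 8.66, 8.73, 7.12 and 8.60 in MDV-R, a rise of 1.33 on the log2 scale (SE 0.36, limma adjusted p = 0.0206). Its IP level did not pass (log2 0.18, adjusted p = 0.424). No gene of the 3 lists held a region called in all C4-2B lists alone, as 1.22% of all regions were. Nothing is read from these counts about the lists, and the unadjusted ones have no share of all regions beside them.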

How the data were processed

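MeRIP-seq was run on 4 IP and 4 input libraries of each line. Per the study's methods and the submitters' processing notes, the authors aligned reads to hg38 (GRCh38) with STAR 2.7.0 and GENCODE 39, handled alignments with SAMtools 1.10, called peaks per IP library against input with MACS2 3.0.0a6 and merged the lists. The deposited peak lists give fold enrichment (a ratio: IP over background near the summit) with a pseudocount of 1, and −log10 p-values and −log10 q-values. The deposited merged list gives positions.

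The deposited fold enrichment and −log10 p-value of each peak were solved together for whole IP tags and the local background (tolerance 0.002 in −log10 p), which gave a value for 99.9924% to 100% of the peaks of a list. Tags and background are stated as multiples of the library-wide mean background and not scaled to total reads, because total depth is not given by the files, and because the narrowest peaks of 239 to 293 nt differ from the stated extension of 100 nt. A region belongs to a gene by its strongest summit (GENCODE 44, bedtools 2.31.1), and a call is an overlap of 1 bp. Log2 values of regions called in all 8 lists were fitted with limma 3.58.1 in R 4.3.3 (Benjamini-Hochberg over all 9327 regions, threshold 0.05). Calls per list were compared by a two-sided Fisher's exact test over 36076 regions. Scripts used Python 3.11.15, numpy 2.4.6, pandas 2.3.3, scipy 1.17.1 and matplotlib 3.10.9, and were tested on simulated data. Replicate numbers did not pair the samples: same-numbered C4-2B and MDV-R lists had correlations of -0.07 to 0.04 in their deviations from the line means. Alternatives were stricter peaks, equal-sized lists, other overlaps and unions, other scalings, no pseudocount, regions called in 3 lists, a replicate block and leaving out each library, and the scaling by fragment length was added after seeing the data. All members were named with all their regions, and genes of the 3 lists of other pathway genes (the cell type markers are not among them) were named where a region of theirs was called in 1 line alone or passed in fold enrichment. The members and lists were chosen with earlier results of these data known. Sequences are from the hg38 reference.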

Additional observations from a re-analysis of the deposited data

Results flagged for a closer look

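Of 90 groups of 4 lists tested for a value standing apart from the rest (Dixon's ratio), 7 did, and chance gives about 1 in 20 groups. In the BCL2 3′UTR at 1227 nt the local background of C4-2B replicate 3 was 1.57 and that of the others 1.0, the peak caller's floor. Any value clearly above the floor would have been flagged there, so this flag is not read as an outlier. In the BCL2 coding exon the fold enrichment of C4-2B replicate 1 was 8.3, against 25.4 to 30.7 in the others. In BCL2L1 exon 2 the fold enrichment of MDV-R replicate 3 was 8.56, against 17.7 to 20.2. In MCL1 exon 1, C4-2B replicate 1 had a fold enrichment of 3.39, against 7.63 to 8.3, and a local background of 73.2, against 39.1 to 42.7. In the BBC3 3′UTR the IP level of C4-2B replicate 1 was 119, against 163 to 170. In the PMAIP1 5′UTR the fold enrichment of MDV-R replicate 3 was 4.56, against 10.1 to 11.5. A peak inside BCL2L2 in C4-2B replicate 2, with a fold enrichment of 3.78, overlapped no region of the merged list.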

How the results depend on the processing

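With all lists shortened to the length of the smallest, 0 of the 26 regions were called in a single line, beside 2 otherwise, and without single libraries the count was 2 to 3. In fold enrichment the count of calls among the shared regions was 1, and 0 without the pseudocount or with a −log10 q of at least 5 in all lists, which leaves 11 regions and drops the BCL2 3′UTR region. Without single libraries it was 0 to 3, the 3 being without MDV-R replicate 3, where 2016 of all 9327 regions passed as higher. Each list centred on its median gave 1 call, of another region. Over all regions the calls split into 318 higher and 21 lower, 79 and 167 after centring, and 79 and 3 without the pseudocount. In local background the count was 1, 2 after centring, and 0 to 2 without single libraries. All regions split into 155 higher and 1023 lower, and 555 and 643 after centring. In IP level the count was 5, from 5 to 5 without single libraries and up to 7 under other scalings. All regions split into 1844 higher and 1370 lower, 2169 and 2518 after centring, and 1334 and 1799 with library size from fragment length. With a replicate block the counts were 1 in fold enrichment, 5 in IP level and 1 in local background, with no call changed. Of the values of single regions under these alternatives, 12 lost and 9 gained a call and 422 kept their side of the threshold. The cause of these changes was not tested. Counts of 9 to 14 tags per C4-2B list limit the BCL2 3′UTR comparison.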
